A study of Mus musculus with 19 samples.

Results

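En2 and Cnpy1 are neighbouring genes on mouse chromosome 5, below Shh in the order in which the mm9 build is numbered. Their contacts were read from capture Hi-C maps of the Shh locus, a method that fixes chromatin, joins DNA ends lying close together, pulls down 1 chosen region with probes and reads the joined ends. The viewpoints were chosen by position: En2 is the 3 bins of 10 kb from 28480001 to 28510000 and Cnpy1 the 6 bins from 28520001 to 28580000. Together they are 9 of the 280 bins in each map. The bin between them belongs to neither. The partners are all other bins at least 20 kb from every bin of a viewpoint, which gives 275 for En2 and 272 for Cnpy1.

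En2 encodes Engrailed-2, a homeodomain transcription factor that represses its targets and that marks the midbrain-hindbrain boundary region of the embryo. Cnpy1 encodes a Canopy protein, a resident of the endoplasmic reticulum, and in zebrafish Canopy1 is needed for Fgf signalling at the same boundary. Shh encodes the secreted signal Sonic hedgehog, and chromatin domains are stretches whose DNA meets itself more often than it meets its neighbours. In the gene table of another build (GRCm38.p6) the order is Insig1, En2, Cnpy1, Rbm33 and Shh, with Rnf32, Lmbr1, Nom1 and Mnx1 beyond it. That table served for order only, so no gene other than those of the rule is placed at a bin. No RNA was measured, so neither the activity of either gene nor the identity of the tissues could be checked in these samples.

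The 19 samples were deposited as 9 merged maps. The midbrain maps are of midbrain with the deltaCTCF i4i5ZRS genotype (strain G4, 2 samples) and of wild type midbrain (strain C57BL/6, 2 samples). The 6 limb bud maps are deltaCTCF i4i5, deltaCTCF i4i5ZRS, deltaZRSreg, delta-CTCF i4i5ZRSreg and Lmbr1deltaprom/deltaprom (all strain G4, 2 samples each) and wild type (C57BL/6, 3 samples). The last map is of wild type ES cells (strain G4, a hybrid ES cell line, 2 samples). All embryos were at E10.5. CTCF binds DNA at many loop anchors and domain borders, i4, i5 and ZRS name deleted sites of it, ZRSreg is an element named for the ZRS, which is the limb enhancer of Shh, and the alleles were made with CRISPR-Cas9. Per the series design the mutant samples are technical replicates and the wild type ones biological, and titles give the same library number to 2 of the 3 samples of wild type limb.

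This gives a pair of midbrain against limb comparisons that share no map: wild type midbrain over wild type limb, within C57BL/6, and midbrain i4i5ZRS over limb i4i5ZRS, within G4 and within 1 genotype. Between wild type midbrain and ES cells, tissue and strain cannot be told apart. Each group is 1 merged map, so there is no spread between replicates, no test and no p-value. Every value is the observed signal over the expected signal, which is the map's own mean for bin pairs that far apart. Each interval is an exact 95% interval that covers counting error only. The treatment of duplicates was not given, so the contacts counted may not all be separate molecules. Recovered contact counts summed to between 1177173 (limb i4i5) and 3218492 (ES cells) per map. Distances in kb are counted from the bin that holds most of the labelled Shh viewpoint, with negative values towards En2. On that scale En2 lies at -310 to -290 kb and Cnpy1 at -270 to -220 kb.

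Because a contact is seen only where DpnII has cut, the RefSeq sequences (GRCm38.p6) around the annotated starts of Cnpy1 are shown with the enzyme's site, GATC, in capitals. RefSeq lists 2 starts, both on the minus strand, the first at chr5:28245739-28246038 and the second at chr5:28210119-28210418, each window running from 250 bases before the start to 50 after it. Cnpy1 was the 1 of the 2 genes matched in the promoter table.
Cnpy1 start 1: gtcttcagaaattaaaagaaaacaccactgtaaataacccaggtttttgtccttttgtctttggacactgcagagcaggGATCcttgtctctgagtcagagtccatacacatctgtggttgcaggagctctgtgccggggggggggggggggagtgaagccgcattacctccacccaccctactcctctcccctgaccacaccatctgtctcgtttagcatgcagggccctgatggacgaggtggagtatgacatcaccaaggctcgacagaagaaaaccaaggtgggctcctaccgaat
Cnpy1 start 2: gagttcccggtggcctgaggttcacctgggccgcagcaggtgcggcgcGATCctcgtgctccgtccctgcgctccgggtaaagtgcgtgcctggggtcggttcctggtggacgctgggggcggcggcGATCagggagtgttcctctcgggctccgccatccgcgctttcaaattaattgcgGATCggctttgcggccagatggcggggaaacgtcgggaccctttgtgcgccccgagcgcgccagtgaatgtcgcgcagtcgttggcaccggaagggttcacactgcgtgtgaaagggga
The first window holds 1 GATC site and 6 CG dinucleotides, at 53% G plus C. The second holds 3 GATC sites and 34 CG dinucleotides, at 66.3% G plus C, and as many or more CG dinucleotides occurred in 7.73% of RefSeq promoter windows against 56.4% for the first. A GATC, which reads the same on both strands, occurred in 47.97% of 32851 such windows. These positions are of another build than the maps and were not carried over to bins.

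En2 and Cnpy1 met each other more in both midbrain maps than in any limb map or in ES cells. Over their 18 bin pairs, 20 to 90 kb apart, contact was 1.45 times the expected signal in midbrain i4i5ZRS (1.42 to 1.48, 7407 contacts) and 1.35 in wild type midbrain (1.32 to 1.38, 7190 contacts). In limb it was 1.16 in i4i5, 1.20 in i4i5ZRS, 1.17 in ZRSreg, 1.151 in i4i5 plus ZRSreg, 1.22 with the Lmbr1 promoter deleted and 1.153 in wild type (1.13 to 1.18, 9239 contacts). ES cells had the lowest value, 1.11 (1.09 to 1.14, 8451 contacts). The midbrain values did not overlap the limb values. In descending order, each midbrain map stood apart from its neighbour by its counting interval, while from the Lmbr1 promoter deletion down to ES cells the intervals of all neighbours overlapped.

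Wild type midbrain was 16.8% above wild type limb, a log2 ratio of 0.22 (0.18 to 0.27), and 21.0% above ES cells, 0.28 (0.23 to 0.32). The ratio over limb depended on the scaling, at 0.12 over the map total, 0.14 on unbalanced counts and -0.26 on the deposited signal, and it was 0.15 against the limb with the Lmbr1 promoter deleted. On the deposited signal the ratio over ES cells was -0.33. Midbrain i4i5ZRS was 21.2% above limb i4i5ZRS, 0.28 (0.23 to 0.33). For scale, the 5 mutant limb maps lay between -0.00 and 0.08 of wild type limb on the log2 scale, and the midbrain maps differed by 0.11 (0.06 to 0.16) from each other. The SD over the 18 bin pairs, 0.30 in wild type midbrain and 0.39 in wild type limb, was larger than the difference between the maps, since the pairs themselves differ in level.

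**Figure D1:**
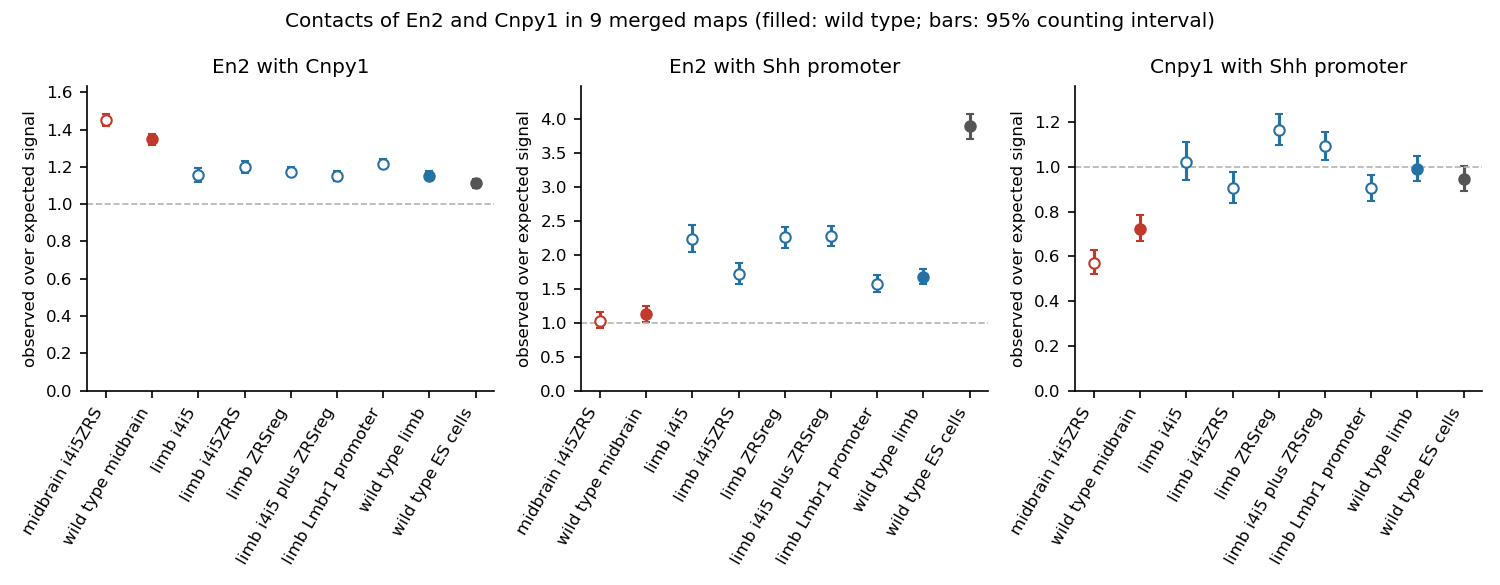
Contact of En2 with Cnpy1, of En2 with the Shh promoter and of Cnpy1 with the Shh promoter in each of the 9 merged maps, as observed over expected signal (vertical axis, from 0) with 95% counting intervals; filled points are wild type maps and the dashed line is the expected level. Midbrain is highest in the first panel, at 1.45 and 1.35, and lowest in the other panels, where ES cells reach 3.89 for En2 with the Shh promoter.

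The difference between midbrain and limb lay in the upper bins of Cnpy1. En2 met the 3 Cnpy1 bins nearest to Shh, -240 to -220 kb, at 1.20 in wild type midbrain against 0.846 in wild type limb, a log2 ratio of 0.50 (0.41 to 0.59). The i4i5ZRS pair gave 1.25 in midbrain against 0.846 in limb, 0.57 (0.47 to 0.67). With the lower 3 bins, -270 to -250 kb, En2 contact was 1.495 in wild type midbrain against 1.46 in wild type limb, 0.03 (-0.02 to 0.09), and 1.65 in midbrain i4i5ZRS against 1.55 in limb i4i5ZRS, 0.09 (0.03 to 0.15). The division into lower and upper bins was made after values were seen.

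Against ES cells both sets of bins were higher in midbrain, with the larger ratio in the lower set. The lower set was at 1.495 in wild type midbrain against 1.19 in ES cells, a log2 ratio of 0.33 (0.28 to 0.39), and the upper set at 1.20 against 1.04, 0.21 (0.12 to 0.29). In single pairs, the middle En2 bin (-300 kb) met the Cnpy1 bin at -230 kb at 1.57 in midbrain i4i5ZRS and 1.42 in wild type midbrain. The 6 limb maps had 0.67 to 1.00 there, and ES cells had 1.42, level with wild type midbrain (log2 ratio -0.00, -0.23 to 0.22). The strongest pair of all joined the same En2 bin to the Cnpy1 bin at -260 kb, at 2.66 in midbrain i4i5ZRS, 2.20 in wild type midbrain, 2.09 to 2.37 in the limb maps and 1.65 in ES cells. Midbrain and limb overlapped at this peak, and ES cells lay below both.

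Of the 18 pairs, 15 were higher in wild type midbrain than in wild type limb, 11 of them with a counting interval above 0, and none was lower with an interval below 0. The i4i5ZRS pair had 16 of 18 higher in midbrain, and 17 of 18 were higher in wild type midbrain than in ES cells. In 10 of the 18 both midbrain maps exceeded all 6 limb maps. These counts were not set against all bin pairs at the same separations. The pairs are adjacent bins of the same merged maps, so the counts are not independent of each other or of the mean over the pairs.

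**Figure D2:**
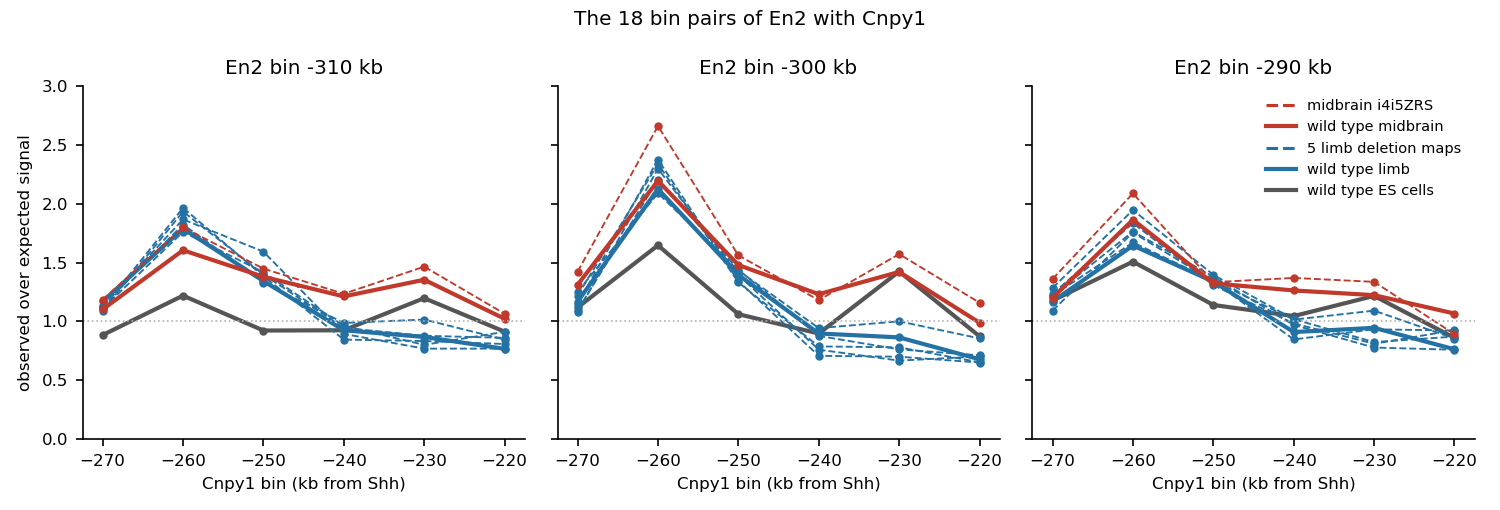
Observed over expected signal (vertical axis) of each of the 3 En2 bins, 1 per panel, with the 6 Cnpy1 bins (horizontal axis, kb from Shh) in all 9 maps; thick lines are wild type. At -260 kb limb and midbrain lie together above ES cells, and from -240 to -220 kb the midbrain lines stay near or above 1 while most limb points lie below it.

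With the Shh promoter, the 2 bins from 28780001 to 28800000, both genes had less contact in midbrain than in limb. En2 was at 1.03 in midbrain i4i5ZRS (0.916 to 1.153, 300 contacts) and 1.13 in wild type midbrain (1.02 to 1.25, 378 contacts). The limb maps were at 2.23 in i4i5, 1.72 in i4i5ZRS, 2.25 in ZRSreg, 2.27 in i4i5 plus ZRSreg, 1.57 with the Lmbr1 promoter deleted and 1.68 in wild type (1.57 to 1.79, 868 contacts). ES cells stood far above, at 3.89 (3.71 to 4.07, 1748 contacts). No limb map overlapped the midbrain values, and the ES map was the highest by a wide margin.

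The log2 ratio for En2 with the Shh promoter was -0.57 (-0.75 to -0.40) for wild type midbrain over wild type limb, -0.74 (-0.95 to -0.53) for midbrain i4i5ZRS over limb i4i5ZRS and -1.79 (-1.95 to -1.63) for wild type midbrain over ES cells. All 6 bin pairs were lower in midbrain in each of these comparisons. The wild type ratio over limb was -1.09 on the deposited signal. The limb maps differed among themselves by nearly as much: ZRSreg, i4i5 plus ZRSreg and i4i5 were 0.43, 0.44 and 0.41 above wild type limb, with intervals above 0, whereas i4i5ZRS (0.04) and the Lmbr1 promoter deletion (-0.09) had intervals that include 0. Allele and strain cannot be told apart in these ratios to wild type limb.

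Cnpy1 met the Shh promoter at 0.572 in midbrain i4i5ZRS (0.52 to 0.63, 451 contacts) and 0.724 in wild type midbrain (0.67 to 0.78, 611 contacts), below the level expected for the distance. The limb maps ranged from 0.905 in the Lmbr1 promoter deletion to 1.17 in ZRSreg, with wild type at 0.99 (0.94 to 1.05, 1251 contacts), and ES cells had 0.946 (0.89 to 1.01, 1062 contacts). Both midbrain maps were thus below all others. The log2 ratio was -0.45 (-0.59 to -0.31) over wild type limb, -0.66 (-0.84 to -0.49) within i4i5ZRS and -0.39 (-0.53 to -0.24) over ES cells. On the deposited signal the wild type ratios were -0.96 over limb and -1.01 over ES cells, and on unbalanced counts the ratio over ES cells was -0.16. With the main promoter bin alone the ES comparison was -0.11 (-0.31 to 0.09), an interval that includes 0. In ES cells, En2 had 3.89 times and Cnpy1 0.946 times the expected contact with the same promoter bins.

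Between Cnpy1 and the lower border of the Shh domain, at -210 to -40 kb, En2 contact was higher in midbrain than in limb, and highest in ES cells. It was 0.97 in midbrain i4i5ZRS and 1.01 in wild type midbrain, against 0.748 in limb i4i5, 0.789 in i4i5ZRS, 0.753 in ZRSreg, 0.73 in i4i5 plus ZRSreg, 0.901 with the Lmbr1 promoter deleted, 0.749 in wild type limb and 1.25 in ES cells. The tissues did not overlap, and the Lmbr1 promoter deletion came closest to midbrain. The log2 ratio was 0.44 (0.38 to 0.49) for wild type midbrain over limb, with 17 of 18 partner bins higher, 0.30 (0.23 to 0.36) within i4i5ZRS, with 15 of 18 higher, and -0.30 (-0.35 to -0.25) over ES cells, with 16 of 18 lower. Counts of bins by direction, for this and the other stretches, were not set against all windows. They describe neighbouring bins of the same maps, which are not independent.

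Cnpy1 showed the same order in this stretch with smaller differences. It was 0.958 in midbrain i4i5ZRS and 0.957 in wild type midbrain, 0.81 to 0.938 in the limb maps with wild type at 0.853, and 1.10 in ES cells. The log2 ratio was 0.17 (0.14 to 0.19) over limb, 0.14 (0.11 to 0.17) within i4i5ZRS and -0.21 (-0.23 to -0.18) over ES cells, where all 17 partner bins were lower in midbrain. Within the stretch the bin at -150 kb (28640001 to 28650000) stood out for both genes. En2 met it at 1.72 in midbrain i4i5ZRS, 1.53 in wild type midbrain, 1.08 to 1.42 in limb and 1.91 in ES cells. Cnpy1 met it at 1.36 and 1.19 in the same midbrain maps, 0.78 to 1.11 in limb and 1.42 in ES cells. In both cases the top limb value was that of the Lmbr1 promoter deletion, and wild type limb had 1.08 for En2 and 0.793 for Cnpy1.

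The contact that crosses the bins of either gene was higher in both midbrain maps than in any limb map. Insulation was taken as the log2 of the signal between the 10 bins on either side of a bin, relative to its average along the map, so that a low value marks a bin over which few contacts pass. At the Cnpy1 bin at -220 kb it was 0.15 in both midbrain maps, -0.18 to 0.03 in the limb maps (wild type -0.13) and 0.28 in ES cells. At the En2 bin at -310 kb it was 0.39 in midbrain i4i5ZRS and 0.38 in wild type midbrain, 0.27 to 0.33 in limb and 0.01 in ES cells. ES cells were above midbrain at the upper 3 Cnpy1 bins, and below it at the lower 3 and at the 3 En2 bins.

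Beyond the lower border, Cnpy1 contact with the interior of the Shh domain, at 100 to 750 kb, was lower in midbrain throughout. It was 0.547 in midbrain i4i5ZRS and 0.621 in wild type midbrain (0.61 to 0.64, 7337 contacts), against 0.858 in limb i4i5, 0.789 in i4i5ZRS, 0.831 in ZRSreg, 0.797 in i4i5 plus ZRSreg, 0.704 with the Lmbr1 promoter deleted, 0.829 in wild type limb (0.81 to 0.84, 13545 contacts) and 0.743 in ES cells. Midbrain did not overlap limb or ES cells. All 66 partner bins were lower in wild type midbrain than in wild type limb, 65 of 66 were lower within i4i5ZRS, and 51 of 66 were lower in wild type midbrain than in ES cells. The same counts over all windows were not taken. Cnpy1 partners of all stretches together also leaned lower, with a median log2 ratio over wild type limb of -0.21. The log2 ratios were -0.42 (-0.46 to -0.37), -0.53 (-0.58 to -0.48) and -0.26 (-0.30 to -0.21).

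For En2 the interior separated limb and midbrain less. It was 0.437 in midbrain i4i5ZRS and 0.507 in wild type midbrain, 0.504 to 0.578 in the limb maps with wild type at 0.57, and 0.74 in ES cells, so the tissues overlapped. The log2 ratio was -0.17 (-0.24 to -0.10) over wild type limb with 47 of 66 bins lower, -0.21 (-0.30 to -0.12) within i4i5ZRS with 45 of 66 lower, and -0.54 (-0.62 to -0.47) over ES cells with 62 of 66 lower. In wild type limb Cnpy1 was thus above En2 in its contact with the interior (0.829 and 0.57), and in ES cells the genes were level (0.743 and 0.74).

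**Figure D3:**
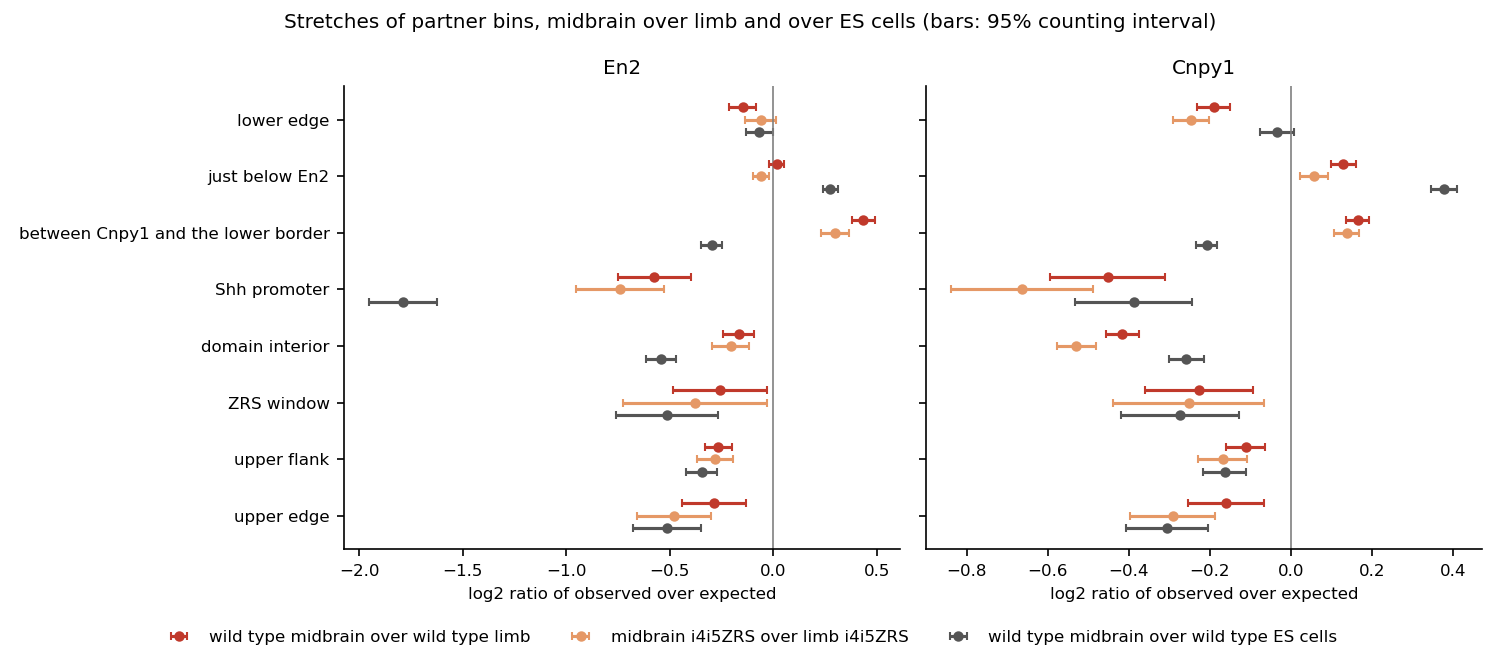
Log2 ratios of observed over expected signal (horizontal axis) for En2 and Cnpy1 with 8 stretches of partner bins, for wild type midbrain over wild type limb, midbrain i4i5ZRS over limb i4i5ZRS and wild type midbrain over wild type ES cells, with 95% counting intervals; the panels have different scales. The midbrain over limb ratios lie above 0 between Cnpy1 and the lower border and below 0 from the Shh promoter upwards. At the lower edge they are also below 0, with an interval that includes 0 for En2 within i4i5ZRS.

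On the far side of En2, at -490 to -320 kb, En2 contact was 0.947 in midbrain i4i5ZRS, 0.923 in wild type midbrain, 0.913 to 0.989 in limb and 0.762 in ES cells, so midbrain and limb overlapped and ES cells were lower. Cnpy1 met this stretch at 1.19 in midbrain i4i5ZRS and 1.20 in wild type midbrain, 1.08 to 1.14 in limb and 0.919 in ES cells. Midbrain exceeded all limb maps here, although the log2 ratio was only 0.13 (0.10 to 0.16) in wild type and 0.06 (0.02 to 0.09) within i4i5ZRS. The bin at -350 kb, named after its values were seen, was the peak of this side. En2 met it at 2.39 in midbrain i4i5ZRS, 2.11 in wild type midbrain, 2.11 to 2.52 in limb and 2.07 in ES cells. Cnpy1 met it at 1.89 and 1.84 in the midbrain maps, 1.49 to 1.65 in limb and 1.28 in ES cells, so that bin told the tissues apart for Cnpy1 and not for En2. Further from Shh, at the lower edge (-990 to -500 kb), both midbrain maps lay below all limb maps for both genes. ES cells had 0.648 for En2, against 0.625 in midbrain i4i5ZRS and 0.618 in wild type midbrain. For Cnpy1 they had 0.856, level with midbrain i4i5ZRS (0.853) and wild type midbrain (0.836). The wild type log2 ratio of midbrain over limb was -0.15 (-0.21 to -0.08) for En2 and -0.19 (-0.23 to -0.15) for Cnpy1. Within i4i5ZRS it was -0.06 (-0.14 to 0.01) for En2 and -0.25 (-0.29 to -0.20) for Cnpy1.

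With the upper flank, 920 to 1400 kb, En2 was at 1.07 in midbrain i4i5ZRS, 1.35 in wild type midbrain, 1.30 to 1.62 in limb and 1.72 in ES cells, and the tissues overlapped. Both pairs had less in midbrain, with log2 ratios of -0.27 (-0.33 to -0.20) in wild type and -0.28 (-0.37 to -0.20) within i4i5ZRS. The ZRS window, 830 to 870 kb and set there by what is generally known of the ZRS, gave log2 ratios of -0.26 (-0.48 to -0.03) for En2 and -0.23 (-0.36 to -0.09) for Cnpy1 in wild type. Within i4i5ZRS they were -0.38 (-0.73 to -0.03) and -0.25 (-0.44 to -0.06). The tissues overlapped there, at 0.68 and 1.23 in midbrain and 0.87 to 1.56 in limb for En2. For Cnpy1 they were at 1.03 and 1.63 in midbrain and 1.19 to 1.90 in limb. The limb i4i5, i4i5ZRS and i4i5 plus ZRSreg maps lay below wild type midbrain for both genes. At the upper edge, 1410 to 1800 kb, both midbrain maps lay below all limb maps for both genes. The wild type log2 ratio was -0.29 (-0.44 to -0.13) for En2 and -0.16 (-0.25 to -0.07) for Cnpy1. Within i4i5ZRS it was -0.48 (-0.66 to -0.30) for En2 and -0.29 (-0.40 to -0.19) for Cnpy1. Because balancing gives every bin of a map the same total, more contact with one stretch goes with less elsewhere, and these stretches are not independent of each other.

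En2 had 1 dominant distant partner. The bin at 1010 kb (29800001 to 29810000), 1300 kb from En2, was its highest partner at 100 kb or more in all 3 wild type maps. It was at 5.27 in midbrain i4i5ZRS and 7.12 in wild type midbrain (6.37 to 7.94, 328 contacts). It was at 8.52 in limb i4i5, 7.37 in i4i5ZRS, 10.2 in ZRSreg, 10.46 in i4i5 plus ZRSreg, 8.76 with the Lmbr1 promoter deleted, 9.25 in wild type limb (8.56 to 9.98, 667 contacts) and 12.2 in ES cells (11.1 to 13.3, 510 contacts). Midbrain had the lowest values and ES cells the highest, although limb i4i5ZRS (7.37) lay within the counting interval of wild type midbrain. The peak spans the bins from 990 to 1020 kb, where wild type midbrain had 2.68, 6.83, 7.12 and 5.00, and wild type limb 3.29, 8.76, 9.25 and 6.84.

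The other named peaks of En2 were far lower. In wild type midbrain they were at 980 kb (1.84), 1640 kb (1.58, 32 contacts), -150 kb (1.53) and 820 kb (1.47). In wild type limb they were at 1040 kb (2.37), 970 kb (1.98), -10 kb (1.82) and 830 kb (1.71), and in ES cells at 1640 kb (4.69, 77 contacts), -10 kb (4.20), 910 kb (2.96) and 730 kb (2.60). A bin of the Shh promoter, -10 kb, was thus among the top 5 in limb and ES cells and not in midbrain, where it had 1.26 in wild type. The bin at -150 kb was among them in midbrain alone, although its level in ES cells, 1.91, was higher.

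**Figure D4:**
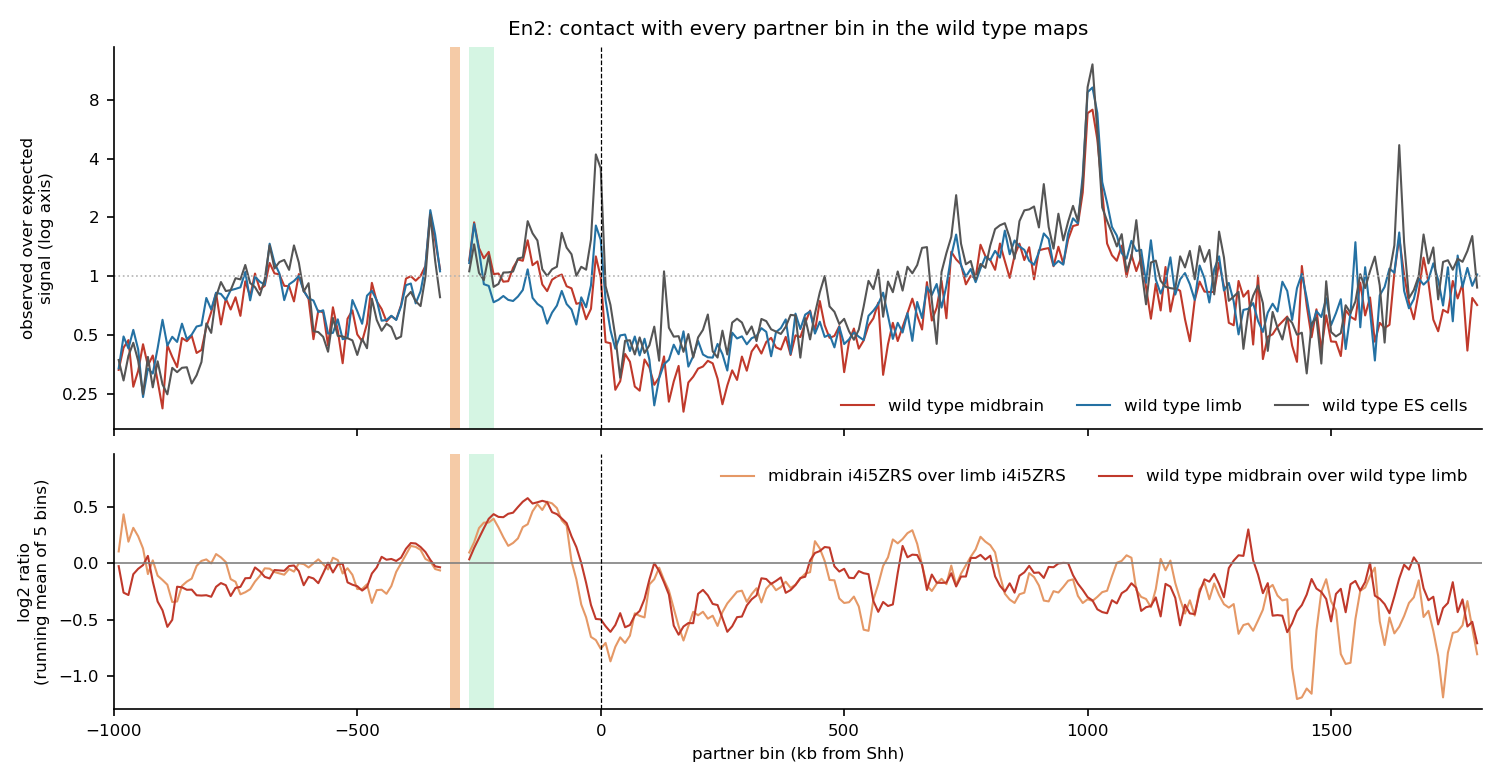
Observed over expected signal of En2 with every partner bin (horizontal axis, kb from Shh) in the 3 wild type maps (upper panel, log axis) and the log2 ratio of midbrain over limb for the wild type and i4i5ZRS pairs (lower panel, running mean of 5 bins); orange marks En2, green Cnpy1 and the dashed line Shh. All 3 maps peak at 1010 kb, and the ratio is above 0 from Cnpy1 up to the stretch before Shh in both pairs.

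Cnpy1 shared the distant peak at a lower level. The bin at 1000 kb was at 2.07 in midbrain i4i5ZRS, 3.08 in wild type midbrain (2.76 to 3.42, 348 contacts), 2.07 to 3.17 in limb with wild type at 3.15, and 3.10 in ES cells (2.75 to 3.48, 288 contacts). It was the top partner in wild type midbrain and ES cells, and in wild type limb the neighbouring bin at 1010 kb was (3.34). The 3 wild type maps were level here, unlike for En2, and the low values were those of the i4i5ZRS allele in midbrain and in limb (both 2.07). The further peaks of Cnpy1 in wild type midbrain, at 1030, 900, 870 and 960 kb, lay between 1.70 and 1.98, and those in the other wild type maps, all from 830 to 1050 kb, between 1.88 and 2.84.

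Partner bins were counted as past the fold where 2 maps differed by at least 1.5-fold with a counting interval of the ratio that left out 1, and each count was read against all windows of as many adjacent bins and all their partners. For En2 over wild type limb, 3 of 275 partners were higher in midbrain (1.09%, against 2.07% of all windows) and 17 lower (6.18%, against 2.61%). Over ES cells, 2 were higher (0.727%, against 8.16%) and 45 lower (16.4%, against 4.55%), 19 of them in the domain interior. Both genes thus had few partners past the fold upwards and more downwards. For Cnpy1 over wild type limb, 2 of 272 were higher (0.735%, against 1.57%) and 27 lower (9.93%, against 2.06%), 15 of them in the domain interior. Over ES cells, 0 were higher (against 9.4%) and 19 lower (6.99%, against 4.09%). At a fold of 2, the partners past it over limb, higher and lower together, were 6 for En2 and 1 for Cnpy1.

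Few bins passed the fold in both the wild type and the i4i5ZRS pair. For En2 no partner was higher in both (against 0.156%) and 3 were lower (1.09%, against 0.479%). For Cnpy1 none was higher in both (against 0.132%) and 17 were lower (6.25%, against 0.473%), 10 of them in the domain interior. By order alone, both midbrain maps lay above all 6 limb maps at 22 En2 partners (8%, against 5.69%), of which 12 of 18 in the stretch between Cnpy1 and the lower border. They lay below all limb maps at 41 (14.9%, against 7.18%). For Cnpy1 they lay above at 20 (7.35%, against 6.4%) and below at 98 (36.0%, against 8.72%), of which 50 of 66 in the domain interior. The median log2 ratio of midbrain over limb in wild type was -0.13 over the En2 partners and -0.21 over the Cnpy1 partners, beside -0.01 and -0.00 over all windows.

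The single bins with the most extreme ratios often rested on few contacts. For En2 over wild type limb the highest were at 1310 kb (0.946 in midbrain against 0.50 in limb, 32 and 23 contacts), -130 kb (1.19 against 0.72, 315 and 271 contacts) and -170 kb (1.22 against 0.79, 398 and 352 contacts). Within i4i5ZRS, midbrain had 0.52, 1.05 and 0.96 at these bins against 0.65, 0.74 and 0.96 in limb, so midbrain was higher at -130 kb, level with limb at -170 kb and lower at 1310 kb. The lowest were at -900 kb (0.21 against 0.60, 10 and 40 contacts), 1780 kb (0.42 against 1.10, 7 and 20 contacts) and 170 kb (0.20 against 0.52, 18 and 65 contacts). The i4i5ZRS maps had 0.50, 0.78 and 0.28 there in midbrain against 0.56, 1.34 and 0.36 in limb, lower in midbrain at all 3. At -900 kb that difference was small, and midbrain i4i5ZRS (0.50) was well above wild type midbrain (0.21).

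For Cnpy1 over wild type limb 2 bins were higher, 1620 kb (1.32 against 0.67, 29 and 19 contacts) and -150 kb (1.19 against 0.793, 1106 and 981 contacts), and of these the bin at -150 kb alone was also higher in midbrain within i4i5ZRS. The lowest were at 1710 kb (0.51 against 1.13, 22 and 56 contacts), 120 kb (0.25 against 0.49, 17 and 48 contacts) and 170 kb (0.31 against 0.62, 69 and 199 contacts). Over ES cells the lowest En2 ratio was at the Shh promoter bin at 0 kb, 0.988 in wild type midbrain against 3.57 in ES cells (207 and 953 contacts), and the next were at 1780 and 1640 kb. The lowest Cnpy1 ratios over ES cells were at 1710, 1590 and 650 kb, where the last had 0.59 against 1.13 (59 and 96 contacts). The 2 En2 partners that were higher in midbrain than in ES cells lay at -890 and -840 kb, on 34 and 25 and on 42 and 30 contacts.

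Other bins had profiles like those of the viewpoints. By rank correlation over partner bins at 100 kb or more, the bin most like En2 outside both genes was at -150 kb in wild type midbrain (rho 0.79 over 245 bins), at -140 kb in limb (0.81 over 244) and at -280 kb in ES cells (0.81 over 258). The bin most like Cnpy1 was at -150 kb in midbrain (0.87 over 249), at -80 kb in limb (0.82 over 242) and at -70 kb in ES cells (0.87 over 241). The En2 profile correlated at 0.77 between the midbrain maps, at 0.71 to 0.86 among limb maps and at 0.66 to 0.83 between midbrain and limb. For Cnpy1 these were 0.86, 0.74 to 0.87 and 0.70 to 0.89, so the ranges within and between tissues overlapped for both genes. Such correlations describe bins that share libraries and depth, and carry no test.

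Within midbrain, the i4i5ZRS map had less contact than wild type along most of the upper side. For En2 it was -0.33 (-0.42 to -0.25) with the upper flank and -0.22 (-0.30 to -0.13) with the domain interior on the log2 scale. For Cnpy1 it was -0.28 (-0.34 to -0.22), -0.18 (-0.23 to -0.14) and, with the Shh promoter, -0.34 (-0.52 to -0.16). En2 with the Shh promoter was at -0.13 (-0.35 to 0.09), an interval that includes 0. The largest change among the stretches was with the ZRS window, -0.85 (-1.17 to -0.53) for En2 and -0.65 (-0.82 to -0.48) for Cnpy1. In limb the same allele over wild type gave -0.31 and -0.18 for En2 and -0.22 and -0.07 for Cnpy1 with the flank and interior. With the ZRS window it gave -0.72 (-0.995 to -0.46) for En2 and -0.63 (-0.78 to -0.48) for Cnpy1, so that large change was seen in both tissues. For Cnpy1 with the Shh promoter it gave -0.13 (-0.27 to 0.01), an interval that includes 0. Allele and strain cannot be told apart in these ratios, which was not the case for midbrain over limb. The Lmbr1 promoter deletion lay on the midbrain side of the other limb maps in several values: with Cnpy1 over the interior it was -0.23 (-0.27 to -0.20) from wild type limb, and with En2 between Cnpy1 and the lower border it was 0.27 (0.21 to 0.32). Its ratios to wild type limb also differ in strain.

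As a share of its signal at 20 kb or more, En2 gave Cnpy1 22.6% in midbrain i4i5ZRS and 20.1% in wild type midbrain, against 16.0% to 19.2% in the limb maps (wild type 17.6%) and 17.1% in ES cells. It gave the Shh promoter 1.08% and 1.17% in the midbrain maps, 1.54% to 2.40% in limb and 4.14% in ES cells. Within 300 kb, En2 sent more signal towards Shh than away from it in every map: the log2 ratio was 0.25 in midbrain i4i5ZRS, 0.27 in wild type midbrain, 0.03 to 0.16 in limb and 0.64 in ES cells. Cnpy1 sent less towards Shh in all midbrain and limb maps, with log2 ratios from -0.53 to -0.37, and was near balance in ES cells (0.06). Counts before balancing, averaged over the bins of a gene, lay 0.25 to 0.37 above the map's median on the log2 scale for En2 and 0.41 to 0.49 above it for Cnpy1, and did not sort the maps by tissue.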

How the data were processed

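Per the names of the deposited files, the authors merged the samples of a group into 1 map, kept alignments of mapping quality 30 and deposited a balanced (KR) contact signal per pair of 10 kb bins. The mm9 build, Juicer, SAMtools, Bowtie2 2.3.4.1 and cutadapt 1.15 come from the submitters' processing notes. Their settings, and how duplicates were treated, were not given in the sources used here. Bin totals are equal within a map and differ between maps, from 7602 to 20135, so signal was divided by the mean at the same separation, with unlisted pairs taken as 0.

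Balanced values are whole counts over bin factors, and at least 99.966% of the counts recovered from them were whole numbers to within 0.01, in each of the maps. Intervals are exact Poisson intervals of a level and exact conditional binomial intervals of a ratio. The recovery, the ratio and the fold rule were tried on maps simulated from wild type limb. Both maps of a simulated ratio had the same bin factors and base counts. How the rule behaves between maps that differ in depth or library was thus not tested. Partner bins at 20 kb or more were counted past a fold of 1.5 with a 95% interval that left out 1. Named bins are, per gene, the 5 highest partners in each wild type map at 100 kb or more, the 3 highest and 3 lowest ratios among bins past the fold, and the most like profile, at least 30 kb apart. The members, stretches and lists were chosen with earlier results of these data known. Python 3.11.15, NumPy 2.4.6 and SciPy 1.17.1 were used. The alternatives were another expected value, scaling, viewpoint, promoter, fold, interval, separation, depth, balancing and pair of maps.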

Additional observations from a re-analysis of the deposited data

Results flagged for a closer look

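The i4i5ZRS allele over wild type was compared between the tissues for the contact of the genes with each other and with every stretch. For 1 of these contacts it went opposite ways, with a counting interval on each side that left out 0. That was En2 with the stretch between Cnpy1 and the lower border of the Shh domain. The log2 ratio was -0.063 (-0.12 to -0.0038) in midbrain and 0.075 (0.01 to 0.14) in limb. For scale, limb with the Lmbr1 promoter deleted was 0.27 (0.21 to 0.32) above wild type limb at this contact. Both intervals cover counting error only, each side is a single pair of merged maps, and the difference between the tissues was not tested. Allele and strain cannot be told apart on either side.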

How the results depend on the processing

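Of 100 alternatives for the contacts and counts, 66 stayed within the counting interval or within 1.5 times the count, and 2 reversed. Both reversals were of En2 with Cnpy1 on the deposited signal without scaling, whose totals differ between maps, at -0.26 over limb and -0.33 over ES cells. Unless said otherwise the values here are log2 ratios of wild type midbrain. En2 with Cnpy1 over limb (0.22) was 0.17 as summed signal over summed expected, 0.12 over the map total, 0.14 on unbalanced counts, 0.28 within i4i5ZRS and 0.15 against the Lmbr1 promoter limb map. Over ES cells (0.28) it was 0.22 over the map total, 0.33 without the viewpoint's edge bins, 0.35 on unbalanced counts and 0.38 for midbrain i4i5ZRS. En2 with the Shh promoter over limb (-0.57) was -1.09 as deposited and -1.0 against limb ZRSreg, and over ES cells (-1.79) it was -2.38 as deposited, -1.99 without edge bins and -1.60 on unbalanced counts. Cnpy1 with the Shh promoter over limb (-0.45) was -0.96 as deposited, -0.66 within i4i5ZRS and -0.69 against limb ZRSreg, and over ES cells (-0.39) it was -1.01 as deposited, -0.16 on unbalanced counts, -0.11 with the main promoter bin and -0.73 for midbrain i4i5ZRS.

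Of partners past the fold over limb, En2 (20) had 6 at a fold of 2, 45 without the interval and 13 at the depth of the shallowest map, and Cnpy1 (29) had 1 at a fold of 2, 66 within i4i5ZRS and 6 against the Lmbr1 promoter limb map. Over ES cells, En2 (47) had 16, 76 without the interval and 90 for midbrain i4i5ZRS, and Cnpy1 (19) had 2 at a fold of 2 and 58 for midbrain i4i5ZRS. Apart from these settings' own construction, the cause of these shifts was not tested. Of 28 alternatives for the stretches, 19 stayed within the interval and none reversed by the rule that a called value changes sign. Samples were merged before deposit, so leaving out a replicate could not be run. No paired analysis was possible because no result comes from a test and each group is 1 map.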
